A study of Mus musculus with 24 samples.

Results

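Chromatin accessibility was examined at 29 genes that make, sense, store and export cholesterol, in bone marrow-derived macrophages (BMDMs) that had or lacked the aryl hydrocarbon receptor (AhR). A consensus peak of the accessibility data belonged to a gene when it overlapped the gene body or the 10 kb upstream of it, and a peak near more than 1 of the genes was given to the nearest. This rule found 196 of 184158 consensus peaks. Of these, 29 lay over a transcription start site (TSS) of 28 genes, with a pair of TSS peaks at Dhcr7 and none at Apoe. The other 167 peaks comprised 101 in introns, 42 over exons and 24 upstream. All 29 TSS peaks and 156 of the 167 other peaks had enough reads to be tested, and 11 did not. At 3 TSS peaks the start of a second protein-coding gene was also covered, namely those of Dhcr7 (with Nadsyn1), Mvk (with Mmab) and Nsdhl (with Cetn2), so that their values belong to both genes.

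Cells build cholesterol from acetyl-CoA through the mevalonate arm and then the sterol arm of the pathway. When sterols are low, SCAP carries the SREBP transcription factors out of the endoplasmic reticulum and they turn on the synthesis genes, while INSIG proteins hold SCAP back when sterols are plentiful. When sterols are in excess, liver X receptors (LXRs), which sense oxysterols, turn on the exporters ABCA1 and ABCG1, and macrophages depend on this route because they take up cell debris and lipoproteins.

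The assay was ATAC-seq, a sequencing readout of the DNA that a transposase can reach. There were 24 libraries in 4 groups of 6, from wildtype (WT) or AhR-KO marrow, each unstimulated or given LPS, a lipid of the bacterial outer membrane to which macrophages respond strongly. The AhR-KO mice carried the B6.129-Ahr tm1Bra/J allele in every cell, and mice of both sexes were used. Each group held cells of 6 animals from 1 experiment, and whether unstimulated and LPS cultures shared animals was not given in the sources used here. All cultures had GM-CSF at 10 ng/ml, TGF-β at 2 ng/ml and 10% serum, a medium meant to give cells resembling alveolar macrophages, and the calcium ionophore A23187 at 5 µM for 10 min. LPS was used at 97 EU/ml on day 6 for 24 h. The labels give this treatment text for all libraries, so the group names alone separate stimulated from unstimulated cultures.

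The sequences of 4 promoters and 2 distal peaks come first because the comparisons return to them. Sequences are in lower case, with searched letters in capitals. The letters were searched on both strands and none of the strings contains another. A sterol regulatory element, the SREBP binding site, was searched as TCACNCCAC, and CCAAT marks the partner site of many SREBP targets. The LXR type of repeat was searched as 2 copies of GGTNA with 5 bases between them, printed here with its spacer in capitals. GCGTG is the core to which AhR binds, TGANTCA the AP-1 site, counted in the peaks and promoters, and GAGGAAGT a site of the macrophage factor PU.1. The promoters run 5′ to 3′ along the transcript and end at or before the RefSeq start. They are chr13:119690158-119690277 (+), chr4:53159906-53160005 (-), chr11:60210597-60210696 (-) and chr19:34475199-34475398 (-) of GRCm38, the assembly behind mm10. The Srebf1 sequence precedes the start of its shorter transcript.
Hmgcs1 promoter: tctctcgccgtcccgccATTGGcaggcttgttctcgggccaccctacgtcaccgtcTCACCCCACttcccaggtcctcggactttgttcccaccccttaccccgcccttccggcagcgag
Abca1 promoter: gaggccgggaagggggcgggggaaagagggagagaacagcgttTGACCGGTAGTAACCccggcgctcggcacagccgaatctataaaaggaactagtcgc
Srebf1 promoter: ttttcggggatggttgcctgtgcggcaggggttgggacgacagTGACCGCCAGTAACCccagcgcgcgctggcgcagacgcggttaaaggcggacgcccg
Ch25h promoter: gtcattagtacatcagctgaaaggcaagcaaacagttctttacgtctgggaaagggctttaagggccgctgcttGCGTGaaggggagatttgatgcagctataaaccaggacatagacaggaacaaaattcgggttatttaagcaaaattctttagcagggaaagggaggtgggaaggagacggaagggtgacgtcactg

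The central bases of 2 distal peaks are given on the + strand, at chr1:156462574-156462873 (Soat1) and chr1:121334318-121334617 (Insig2). They were chosen after their values were seen, as peaks with some of the larger differences in the account below. The Insig2 peak lay partly in repeats, with 56.5% of its bases soft-masked in the genome, and the Soat1 peak was soft-masked over 22.4%. The capitals mark an AhR core at Soat1 and PU.1 sites at Insig2.
Soat1 intron peak: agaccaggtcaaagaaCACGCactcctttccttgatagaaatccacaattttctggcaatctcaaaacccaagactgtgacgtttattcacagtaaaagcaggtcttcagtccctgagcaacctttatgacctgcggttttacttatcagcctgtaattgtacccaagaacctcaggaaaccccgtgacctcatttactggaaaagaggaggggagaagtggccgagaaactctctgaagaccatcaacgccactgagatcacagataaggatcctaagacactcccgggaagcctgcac
Insig2 upstream peak: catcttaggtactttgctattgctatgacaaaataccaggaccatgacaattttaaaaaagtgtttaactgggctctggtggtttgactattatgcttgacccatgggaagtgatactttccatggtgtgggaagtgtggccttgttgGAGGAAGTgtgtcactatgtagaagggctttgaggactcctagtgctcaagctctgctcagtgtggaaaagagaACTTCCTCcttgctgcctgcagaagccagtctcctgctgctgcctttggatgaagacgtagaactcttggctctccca

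RefSeq promoter windows, from 250 bases before to 50 after a start, were given for 24 of the 29 genes, with 34 windows in all. The CCAAT box was in 21 of the 34 windows (61.8%), compared with 37.4% of 32851 promoters. The AhR core was in 17 (50%), compared with 32.4%. In the central 300 bases of TSS peaks the core was in 58.6% of those of the members, compared with 46.5% of all. The sterol regulatory element was found in 1 window, that of Hmgcs1, and in 1.24% of all promoters. The LXR-type repeat was in 2 windows, those of Abca1 and of the shorter Srebf1 transcript, and in 0.718% of all promoters. The AP-1 site was in 2 windows and PU.1 in 2 (7.81% and 3.2% of all promoters), and the NF-κB letters GGANTTTCC were in 0 windows (1.25%). The PU.1 windows are overlapping windows of Scap and hold the same site. Their AhR core is likewise the same site, counted in both windows. These matches are letters in a window and do not show binding.

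Library totals ran from 8536838 to 34598345 read pairs in peaks, with 1 unstimulated WT library (replicate 5) the shallowest. The Ahr TSS peak, at chr12:35534070-35535364, ranged from 20.2 to 24.6 CPM (counts scaled to a common library size, TMM-normalised) in unstimulated WT, and without LPS the AhR-KO libraries lay between 11.5 and 15.1. With LPS it ranged from 19 to 22.2 in WT and 11.9 to 16.8 in AhR-KO, so the genotypes did not overlap and the labels held. Of 10 macrophage marker genes 9 had a TSS peak, Spi1 being the exception, while the 4 B cell and 4 T cell markers had 0. Macrophage TSS peaks summed to 217 to 246 CPM in WT, 237 to 299 in AhR-KO, 223 to 243 in WT with LPS and 214 to 274 in AhR-KO with LPS. Of the 29 genes, 0 lay on chromosome 12, where Ahr is.

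Differences are log2 fold changes ± SE from edgeR's quasi-likelihood test on all 174193 tested peaks, with Benjamini-Hochberg adjusted p over all of them and n = 6 per group. Peaks were called differentially accessible regions (DARs) when they differed by 1.5-fold or more, in either direction, with an adjusted p no higher than 0.05. The comparisons were AhR-KO against WT without and with LPS, LPS against unstimulated in each genotype, and the interaction, which is the AhR-KO effect with LPS minus that without. The 2 AhR-KO comparisons and the 2 LPS comparisons share no library between them, but each AhR-KO comparison shares libraries with both LPS comparisons. In bulk cultures, fewer cells of a type and less accessibility per cell cannot be told apart.

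Loss of AhR moved no TSS peak of the 29 genes by 1.5-fold or more. Without LPS, 0 of 29 TSS peaks were DARs in either direction, against 4.23% lower and 1.98% higher among all TSS peaks. With LPS again 0 were DARs, against 5.51% lower and 1.46% higher, and DESeq2 gave 0 in both conditions too. Smaller differences passed the adjusted p alone at 9 lower and 9 higher peaks in unstimulated cells, where 3416 and 2992 of all 13458 TSS peaks passed. In stimulated cells 7 lower and 1 higher passed, where 3079 and 1426 of all TSS peaks did. The median log2 fold change of the members was -0.07 without LPS and -0.03 with it, compared with -0.01 and -0.03 over all TSS peaks.

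LPS lowered 1 of 29 TSS peaks past 1.5-fold in WT and raised 0, where 6.29% of all TSS peaks were lower and 4.12% higher. In AhR-KO, LPS lowered 3 and raised 1, where 11.2% were lower and 4.67% higher. The direction at the synthesis genes was nonetheless shared. All 17 TSS peaks of the mevalonate and sterol arms had a log2 fold change below 0 in WT, and 9 of these passed the adjusted p, where 8387 of all 13458 TSS peaks were below 0 and 4446 passed. In AhR-KO 14 of the 17 were below 0 and 8 passed, 0 of them a DAR, where 8592 of all TSS peaks were below 0 and 5670 passed. In the interaction, 1 of 29 TSS peaks was lower and 1 higher, where 2.5% and 1.11% of all TSS peaks were.

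**Figure D1:**
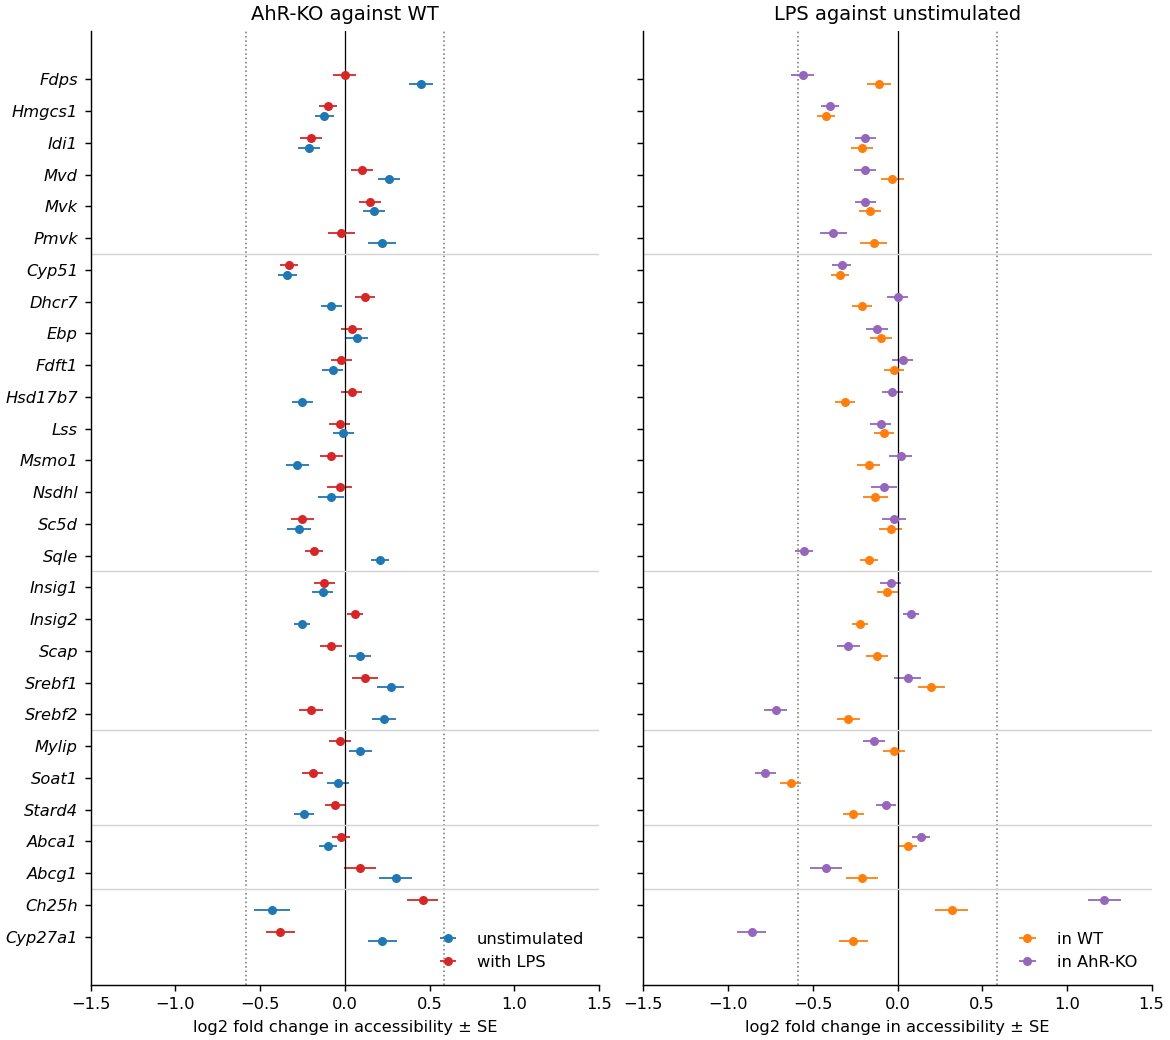
Log2 fold change ± SE (edgeR, n = 6 libraries per group) of the TSS peak with the highest mean CPM of 28 genes, in role groups separated by grey lines, with dotted lines at 1.5-fold. The left panel shows AhR-KO against WT without LPS (blue) and with LPS (red), where no point passes 1.5-fold and Ch25h changes side; the right panel shows LPS in WT (orange) and AhR-KO (purple), where Ch25h rises to 1.22 and Cyp27a1 falls to -0.86 in AhR-KO.

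Among the TSS peaks, only those of the oxysterol genes were DARs in the interaction. Ch25h makes 25-hydroxycholesterol, an oxysterol that macrophages release and that holds back SREBP processing. Its TSS peak, at chr19:34474292-34476127, had CPM of 8.77, 10.1 and 11.4 (lowest, median and highest) in WT against 6.11, 7.45 and 8.34 in AhR-KO. With LPS it had 10.9, 12.8 and 13.6 in WT compared with 12.1, 17.7 and 20.6 in AhR-KO. Unstimulated AhR-KO libraries all lay below the WT libraries, whereas with LPS the AhR-KO libraries reached highest and overlapped WT. The AhR-KO difference was -0.43 ± 0.104 without LPS (adjusted p = 8.73e-04) and 0.46 ± 0.0918 with it (adjusted p = 8.62e-05). LPS changed the peak by 0.32 ± 0.0979 in WT (adjusted p = 0.00427) and 1.22 ± 0.0978 in AhR-KO (adjusted p = 1.41e-13), of which only the latter was a DAR. The interaction was 0.90 ± 0.138 (adjusted p = 2.82e-05). The Ch25h promoter printed above holds an AhR core, and the peak also covers an exon of the noncoding gene Gm26902, which starts in the opposite direction.

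Cyp27a1 makes 27-hydroxycholesterol. Its TSS peak, at chr1:74712129-74714641, had CPM of 13.3, 14 and 14.9 in WT against 15, 15.8 and 18 in AhR-KO. With LPS it had 8.87, 12.6 and 12.8 in WT compared with 7.58, 8.87 and 10.4 in AhR-KO. AhR-KO libraries were above WT libraries without LPS, and mostly below them with LPS. LPS lowered the peak by -0.86 ± 0.0863 in AhR-KO (adjusted p = 4.76e-11), where the 2 groups did not overlap, and the log2 fold change in WT was -0.26 ± 0.0858 (adjusted p = 0.00776). The interaction was -0.60 ± 0.122 (adjusted p = 8.64e-04), opposite in sign to that of Ch25h. A Cyp27a1 intron peak 2.0 kb from the start moved the same way in AhR-KO, by -0.59 ± 0.134 (adjusted p = 2.24e-04).

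Among the sensing and storage genes, Srebf2, which encodes the main SREBP of cholesterol synthesis, and Soat1, which esterifies cholesterol for storage, had the other TSS DARs. The Srebf2 TSS peak, at chr15:82146664-82148047, had CPM of 31.8, 35.3 and 37.8 in WT against 35.5, 42.1 and 46.1 in AhR-KO. With LPS it had 27.2, 28.1 and 32 in WT compared with 21.3, 25.8 and 27.6 in AhR-KO. In AhR-KO all LPS libraries lay below the unstimulated ones and the change was -0.72 ± 0.0691 (adjusted p = 1.68e-11); the change in WT was -0.29 ± 0.0694. The Soat1 TSS peak, at chr1:156473942-156474635, had CPM of 29.9, 31.9 and 34.4 in WT, 28.1, 31.5 and 33.5 in AhR-KO, 19.6, 20.9 and 21.8 in WT with LPS and 15.2, 18 and 21.3 in AhR-KO with LPS. LPS lowered it in both genotypes with no overlap, by -0.63 ± 0.0632 in WT (adjusted p = 6.91e-11) and -0.78 ± 0.0636 in AhR-KO (adjusted p = 2.24e-13).

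**Figure D2:**
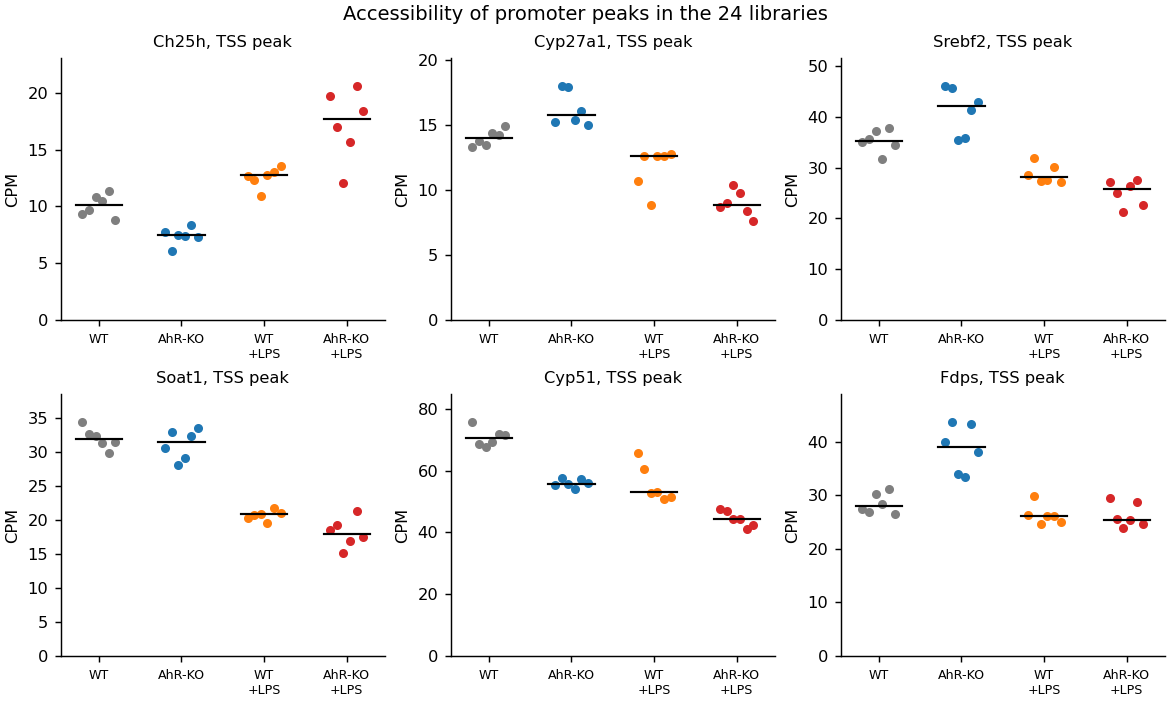
Accessibility (CPM, TMM-normalised) of the TSS peaks of Ch25h, Cyp27a1, Srebf2, Soat1, Cyp51 and Fdps in each of the 24 libraries, by group, with a bar at the group median. For Ch25h the AhR-KO libraries with LPS reach 20.6 CPM, and for Soat1 both LPS groups lie below both unstimulated groups.

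Of the synthesis genes, Cyp51, the sterol demethylase, had lower promoter accessibility in AhR-KO both without and with LPS. Its TSS peak, at chr5:4103592-4105066, had CPM of 67.6, 70.5 and 75.7 in WT, 54, 55.9 and 57.5 in AhR-KO, 50.9, 53 and 65.6 in WT with LPS and 41, 44.3 and 47.6 in AhR-KO with LPS. The AhR-KO groups lay wholly below the WT groups, with log2 fold changes of -0.34 ± 0.0548 and -0.33 ± 0.0544 (adjusted p = 4.84e-06 and 5.74e-06). LPS changed it by -0.34 ± 0.0542 in WT and -0.33 ± 0.0549 in AhR-KO. The Sc5d TSS peak, at the gene for a late sterol desaturase, was -0.27 ± 0.0702 and -0.25 ± 0.0677 in AhR-KO. Hmgcs1, the synthase that opens the mevalonate arm and whose promoter carries the sterol regulatory element above, had a TSS peak at chr13:119689969-119690976 with CPM of 98.4, 104 and 114 in WT against 89.7, 95.5 and 105 in AhR-KO. With LPS it had 72.3, 76.6 and 87.2 in WT compared with 67.6, 72.4 and 81.2 in AhR-KO. LPS groups lay below unstimulated groups in both genotypes, with log2 fold changes of -0.42 ± 0.0534 (adjusted p = 1.41e-08) and -0.40 ± 0.0534 (adjusted p = 3.20e-08).

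Fdps makes farnesyl diphosphate, the branch point to sterols. Its TSS peak, at chr3:89101535-89103534, had CPM of 26.5, 27.9 and 31.1 in WT against 33.4, 39 and 43.6 in AhR-KO, with no overlap. With LPS the groups came together, at 24.6, 26.1 and 29.8 in WT compared with 23.9, 25.4 and 29.5 in AhR-KO. The AhR-KO difference was 0.45 ± 0.0688 without LPS (adjusted p = 1.83e-06) and 0.00 ± 0.0676 with it (adjusted p = 0.996), and the interaction was -0.45 ± 0.0965 (adjusted p = 0.00145). Sqle, whose squalene epoxidase is a rate-limiting step of the sterol arm, had an interaction of -0.38 ± 0.0753 at its TSS peak (adjusted p = 5.77e-04), and Srebf2 one of -0.43 ± 0.0979 (adjusted p = 0.00257). In the other direction lay the TSS peaks of Insig2 at 0.31 ± 0.066 (adjusted p = 0.00151), Hsd17b7 at 0.28 ± 0.087 (adjusted p = 0.0231) and the second Dhcr7 start at 0.41 ± 0.0773 (adjusted p = 3.55e-04). None of these 6 interactions was a DAR. The chromosome X genes Ebp and Nsdhl, which encode sterol arm enzymes, had TSS log2 fold changes between -0.13 and 0.07 in all 5 comparisons, while chromosome X took 1.88 to 2.12% of counts in the libraries.

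Away from the promoters the peaks differed far more. Of 156 other peaks, 11 were lower and 23 higher in AhR-KO without LPS, beside 13.4% and 10.6% of all other peaks. With LPS 19 were lower and 14 higher in AhR-KO, beside 13.7% and 14.4%. LPS lowered 33 and raised 54 in WT, beside 22.9% and 27.2%, and lowered 43 and raised 52 in AhR-KO, beside 22.4% and 29.2%. In the interaction 12 were lower and 4 higher, beside 4.77% and 6.24%. Of the peaks raised by LPS, 44 were raised in both genotypes (81.5% of those in WT and 84.6% of those in AhR-KO), and 27 were lowered in both (81.8% and 62.8%). Of all other peaks, 36053 were raised in both genotypes, beside 43674 raised in WT and 46955 in AhR-KO. Likewise 26627 were lowered in both, beside 36839 lowered in WT and 36021 in AhR-KO. The counts in both genotypes cover 160648 of the 160735 tested other peaks. Of the member peaks that were higher in AhR-KO, 9 were so without and with LPS (39.1% and 64.3%), and of the lower ones 7 (63.6% and 36.8%). For the AhR-KO comparisons the sharing over all other peaks was not counted.

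**Figure D3:**
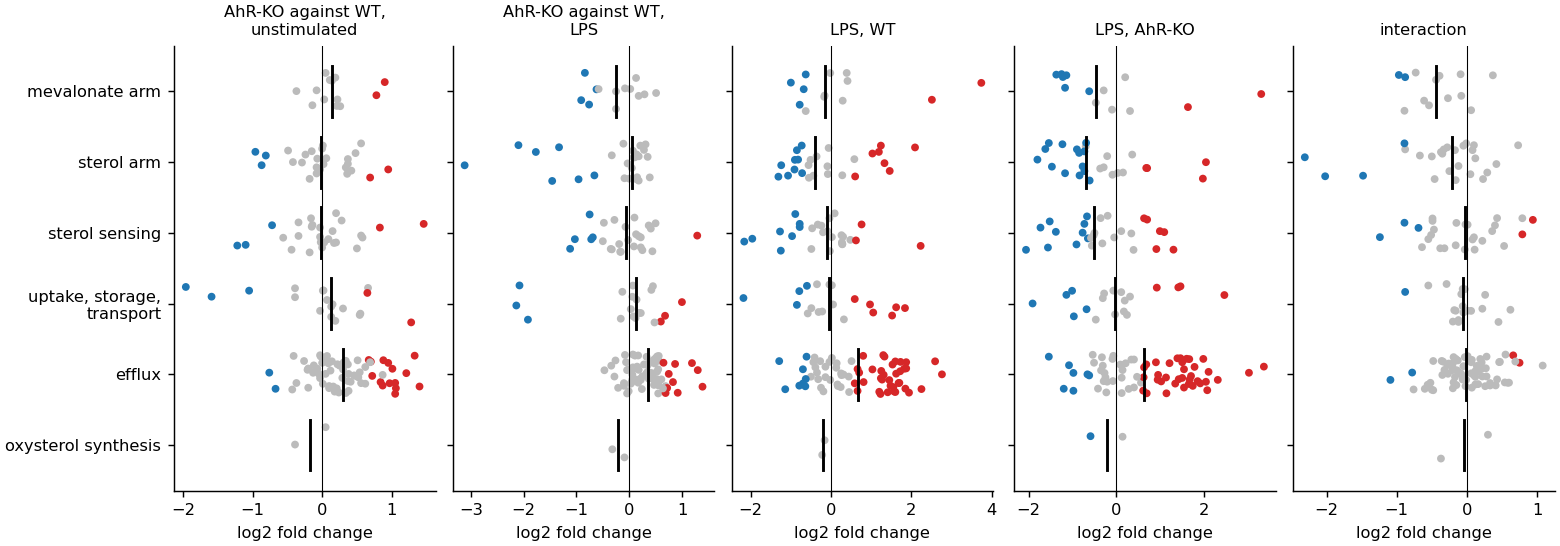
Log2 fold change of the 156 other peaks by role of the gene in each of the 5 comparisons, with a bar at the median and points spread vertically at random. Red points are higher DARs, blue points lower DARs and grey points neither; the efflux row holds 36 of the 54 red points for LPS in WT.

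The efflux genes took most of the gain with LPS. Abca1, which loads cholesterol onto apolipoprotein A-I, had 46 tested other peaks. LPS raised 31 of them and lowered 4 in WT, beside 27.2% raised and 22.9% lowered of all other peaks, and raised 32 and lowered 2 in AhR-KO, beside 29.2% and 22.4%. The same 31 were raised in both genotypes, and the median log2 fold change was 1.25 in WT and 1.17 in AhR-KO. Many Abca1 peaks were called in 0 of 6 libraries of each unstimulated group. Those starting at chr4:53033058 and chr4:53092325, for example, were called in 6 of 6 libraries of each LPS group only. Such peaks entered the consensus through LPS libraries, which favours a rise, and neighbouring peaks of 1 gene need not be separate gains. Without Abca1, a count added after the values were seen, LPS raised 23 and lowered 29 of the remaining 110 other peaks in WT (20.9% and 26.4%, near the shares of all other peaks), and raised 20 and lowered 41 in AhR-KO (18.2% and 37.3%). The Abca1 TSS peak, which contains the LXR-type repeat printed above, stayed near its starting level, at 0.06 ± 0.0544 in WT and 0.14 ± 0.0542 in AhR-KO with LPS.

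The Abca1 peak with the smallest p lay 4.6 kb upstream, at chr4:53164366-53164564. It was called in 0 of 6 libraries of each unstimulated group, 1 of WT with LPS and 3 of AhR-KO with LPS. It had CPM of 0.131, 0.22 and 0.465 in WT, 0.157, 0.24 and 0.339 in AhR-KO, 1.3, 1.6 and 2.05 in WT with LPS and 2.03, 2.62 and 2.8 in AhR-KO with LPS. No LPS library overlapped an unstimulated one, and the log2 fold change was 2.76 ± 0.235 in WT (adjusted p = 1.07e-12) and 3.36 ± 0.212 in AhR-KO (adjusted p = 1.85e-16). With LPS the peak was also higher in AhR-KO, by 0.65 ± 0.151 (adjusted p = 5.66e-04). A peak over the 3′ end of Abca1, mostly beyond the gene, at chr4:53027861-53031368, rose with LPS, from a median of 3.18 to 7.23 CPM in WT, and in AhR-KO the medians were 3.6 and 9.86. The fold change was 2.36 in WT and 2.83 in AhR-KO (adjusted p = 2.64e-12 and 2.12e-15). An intron peak 41.1 kb from the start had the smallest interaction p of the efflux group, at -0.56 ± 0.105 (adjusted p = 3.29e-04), which did not reach 1.5-fold. AP-1 letters were in 38.8% of all other peaks raised by LPS in both genotypes and in 19.2% of all other peaks, and in 4 of the 31 Abca1 peaks (12.9%).

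Abcg1, which exports cholesterol to lipoprotein particles, differed by genotype. Of 21 tested other peaks, 11 had gained accessibility in unstimulated AhR-KO and 0 had lost it, beside 10.6% higher and 13.4% lower of all other peaks. With LPS 5 of these 11 remained higher, no others were, and 0 were lower, beside 14.4% and 13.7%. LPS raised 5 and lowered 3 in WT (23.8% and 14.3%), and raised 4 and lowered 5 in AhR-KO (19% and 23.8%), shares near or below those of all other peaks. An intron peak 14.5 kb from the start, at chr17:31072004-31072382, had CPM of 1.28, 1.58 and 2.44 in WT against 3.22, 4.15 and 5.52 in AhR-KO. With LPS it had 0.929, 1.24 and 1.43 in WT compared with 2.53, 2.76 and 3.09 in AhR-KO. The AhR-KO libraries lay above WT in both conditions, by 1.40 ± 0.146 (adjusted p = 1.02e-09) and 1.19 ± 0.144 (adjusted p = 2.08e-08). The authors' own peak lists, called per library, held it in 6 of 6 unstimulated AhR-KO libraries and in 0 of 6 of each other group. The peak thus entered the consensus through unstimulated AhR-KO alone, which favours a higher value there.

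A second Abcg1 intron peak, 9.6 kb from the start, had CPM of 2.35, 2.99 and 3.84 in WT against 4.56, 5.58 and 6.87 in AhR-KO. With LPS it had 8.99, 9.29 and 11.7 in WT compared with 8.98, 10.8 and 13.2 in AhR-KO. AhR-KO libraries started above WT and overlapped WT after LPS. The AhR-KO difference was 0.95 ± 0.131 without LPS (adjusted p = 2.91e-07) and 0.17 ± 0.105 with it (adjusted p = 0.191), and the interaction was -0.78 ± 0.168 (adjusted p = 0.00151). The Abcg1 TSS peak was at 0.30 ± 0.0961 and 0.09 ± 0.0943 in AhR-KO. Apoe, the apolipoprotein that accepts exported cholesterol, had no TSS peak and a pair of upstream peaks. The nearer one, 0.4 kb upstream, was lower with LPS in both genotypes, by -0.61 ± 0.0998 in WT (adjusted p = 1.66e-06) and -0.54 ± 0.103 in AhR-KO (adjusted p = 1.89e-05).

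**Figure D4:**
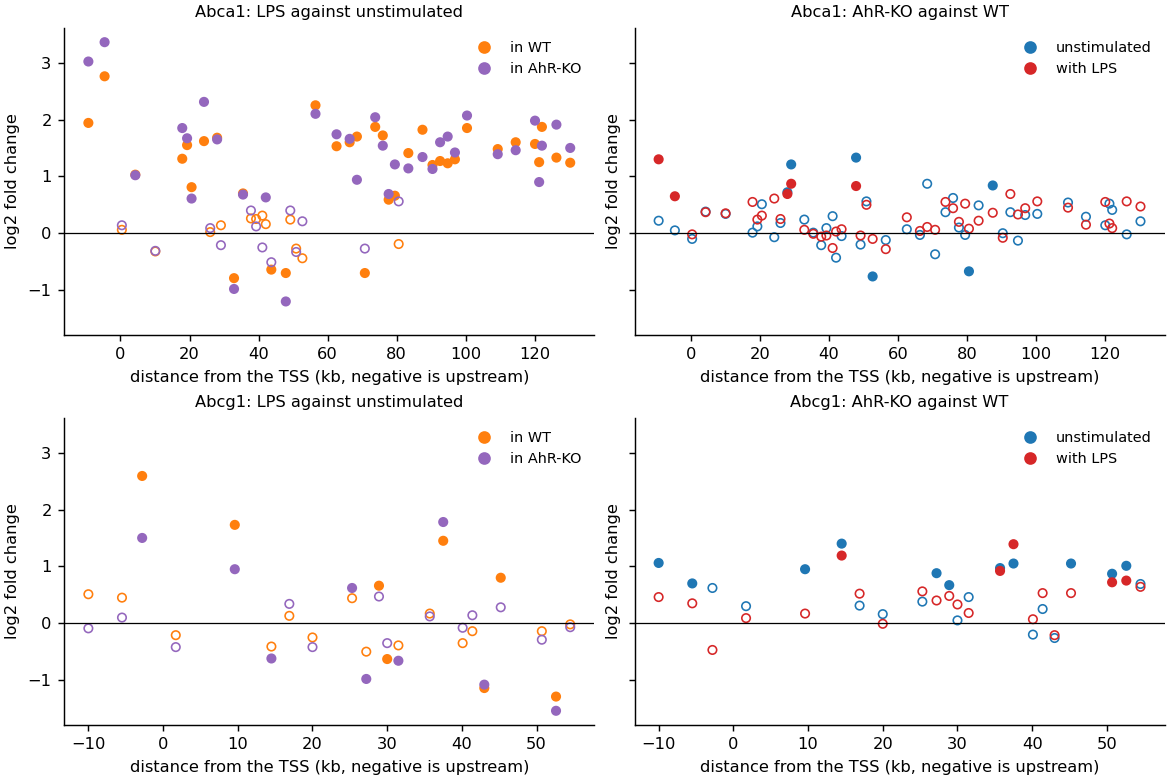
Log2 fold change of each tested Abca1 and Abcg1 peak against its distance in kb from the nearest TSS of the gene, with filled points for DARs, orange for LPS in WT, purple for LPS in AhR-KO, blue for AhR-KO without LPS and red for AhR-KO with LPS. At Abca1 the LPS points lie mostly above 0 along the gene body, and at Abcg1 the AhR-KO points lie mostly above 0.

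A minority of the distal peaks of the synthesis genes was lower in AhR-KO with LPS. Of 39 tested other peaks of the 16 synthesis genes, 11 were lower (28.2%) and 0 higher, beside 13.7% and 14.4% of all other peaks, and the median log2 fold change over the 39 was -0.00. Without LPS 3 were lower and 4 higher (7.69% and 10.3%), beside 13.4% and 10.6%. LPS lowered 13 and raised 9 in WT (33.3% and 23.1%), beside 22.9% and 27.2%, and lowered 20 and raised 6 in AhR-KO (51.3% and 15.4%), beside 22.4% and 29.2%. The interaction was lower at 6 and higher at 0, beside 4.77% and 6.24%. Of the 19 member peaks lower in AhR-KO with LPS, 3 were soft-masked over more than 50% of their bases (15.8%), compared with 8.7% of all other peaks. The synthesis gene peak that differed most was in a Cyp51 intron 20.4 kb from the start, and 74.3% of its bases were soft-masked. It had CPM of 1.78, 2.08 and 3.14 in WT, 0.89, 1.21 and 1.58 in AhR-KO, 2.38, 6.34 and 8.9 in WT with LPS and 0.582, 0.65 and 0.911 in AhR-KO with LPS. It was called in 2 of 6 libraries of WT, 6 of 6 of WT with LPS and 0 of 6 of each AhR-KO group. Entry into the consensus through WT libraries favours a higher value in WT. With LPS every AhR-KO library was below every WT library, by -3.12 ± 0.264 (adjusted p = 3.15e-10). LPS raised the peak in WT by 1.46 ± 0.235 and lowered it in AhR-KO by -0.85 ± 0.317 (adjusted p = 4.16e-06 and 0.0208), and the interaction was -2.31 ± 0.395 (adjusted p = 2.43e-04).

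A Sqle upstream peak 7.1 kb from the start, at chr15:59306603-59309274, was also raised by LPS in WT and lower in AhR-KO with LPS, whereas its differences in AhR-KO with LPS against unstimulated, and between unstimulated genotypes, did not pass the test. It had CPM of 4.06, 4.54 and 5.75 in WT, 3.15, 3.84 and 4.54 in AhR-KO, 5.6, 10.3 and 16.1 in WT with LPS and 2.56, 3.06 and 3.56 in AhR-KO with LPS. Its AhR-KO difference was -0.29 ± 0.188 without LPS and -1.77 ± 0.173 with it (adjusted p = 0.235 and 2.36e-09), and the interaction was -1.48 ± 0.256 (adjusted p = 2.30e-04). Idi1, the isomerase of the mevalonate arm, had an upstream peak at chr13:8879265-8879859, soft-masked over 74.5% of its bases. It was called in 0 of 6 libraries of each unstimulated group and entered the consensus through LPS libraries, which favours a rise. LPS raised it from a median of 0.375 to 2.12 CPM in WT, with 0.314 and 1.25 in AhR-KO. The changes were 2.51 ± 0.21 and 1.63 ± 0.214 (adjusted p = 6.46e-13 and 2.39e-08), and with LPS AhR-KO was lower by -0.84 ± 0.162 (adjusted p = 5.36e-05).

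Lss encodes the cyclase that forms lanosterol. Its intron peak 9.9 kb from the start, at chr10:76541304-76541788, had CPM of 9.42, 13 and 17.9 in WT, 5.46, 6.87 and 8.08 in AhR-KO, 6.71, 8.07 and 9.12 in WT with LPS and 2.52, 2.67 and 3.6 in AhR-KO with LPS. Loss of AhR and LPS each lowered it with no overlap of groups. The AhR-KO difference was -0.96 ± 0.12 without LPS and -1.46 ± 0.129 with it (adjusted p = 4.50e-08 and 4.17e-11). Peaks of 2 mevalonate arm genes were instead higher in unstimulated AhR-KO. At Mvd, the decarboxylase, an exon peak at chr8:122436235-122438463 had medians of 25 in WT and 41.4 in AhR-KO (0.78 ± 0.0868, adjusted p = 1.05e-08), and it kept a difference of 0.51 ± 0.0839 with LPS. At Pmvk, a kinase, an exon peak at chr3:89467729-89468726 had medians of 2.92 in WT and 5.36 in AhR-KO (0.90 ± 0.125, adjusted p = 3.61e-07) and of 3.89 and 3.92 with LPS. Its interaction was -0.88 ± 0.171 (adjusted p = 5.51e-04).

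Dendritic cell markers were examined beside the peaks lower in AhR-KO with LPS. Of 5 dendritic markers 4 had a TSS peak, Cd209a being without one, and their summed CPM was 31.8 to 46.5 in WT, 33.3 to 39.8 in AhR-KO, 33.2 to 53.4 in WT with LPS and 25.7 to 33.3 in AhR-KO with LPS. Flt3, the receptor that defines dendritic precursors, was at 8.12 to 15.2 in WT and 3.75 to 5.06 in AhR-KO with LPS, while a Zbtb46 peak was higher in AhR-KO. Of 5 dendritic TSS peaks 3 were lower DARs and 1 a higher DAR in AhR-KO with LPS. Replicates 1, 2 and 6 of WT with LPS had the 3 highest dendritic sums, and the same 3 libraries were the 3 highest of their group at 11 of the 19 member peaks lower in AhR-KO with LPS (57.9%). This held for 45.6% of 22021 other peaks of all genes that were lower in AhR-KO with LPS. It held for 12.2% of the 156 other peaks of the members and for 13.4% of all other peaks. The 19 peaks were chosen for being higher in WT with LPS, the group whose order is read here. Most of the dendritic peaks were lower DARs of the same comparison, so the order is a description only. The 11 lay at Cyp51, Fdps, Hmgcs1, Soat1, Sqle and Srebf2, and the Lss, Insig2 and Idi1 peaks were not among them. The part of dendritic cells in these differences was not tested. Neutrophil markers with a TSS peak (4 of 6) summed to 32.7 to 45.7 in WT, 35.8 to 39.4 in AhR-KO, 35.3 to 52.9 in WT with LPS and 43.6 to 51.8 in AhR-KO with LPS. Camp and S100a8 made up most of these sums, and 2 of the 4 peaks were lower DARs in AhR-KO both without and with LPS, those of S100a9 (means of 3.13 in WT and 1.19 in AhR-KO, and with LPS 1.24 and 0.568) and Ngp (0.933 and 0.444, and 0.61 and 0.219). Their part in the differences was not tested. Fibroblast markers (2 of 4) summed to 11.3 to 20.4 over all libraries.

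**Figure D5:**
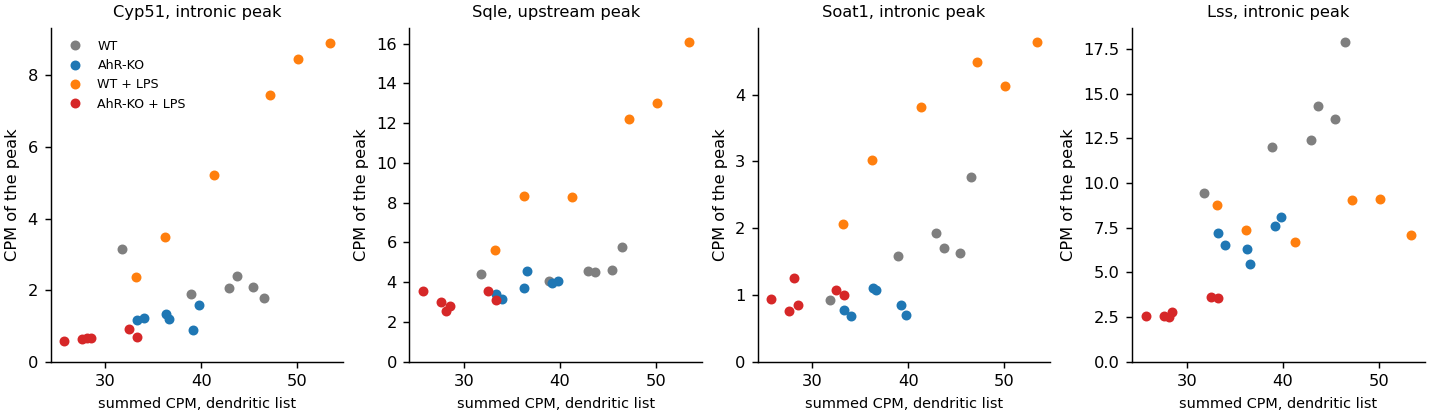
Accessibility (CPM) of the Cyp51, Sqle, Soat1 and Lss distal peaks against the summed CPM of the dendritic marker TSS peaks in the 24 libraries, coloured by group. The 3 WT libraries with LPS that have the highest dendritic sums, up to 53.4, are also the 3 highest of their group at Cyp51, Sqle and Soat1 and not at Lss.

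Among the sterol sensors, LPS lowered 8 and raised 3 of 27 tested other peaks in WT, and lowered 10 and raised 6 in AhR-KO. These are 29.6% and 11.1% in WT, beside 22.9% and 27.2% of all other peaks, and 37% and 22.2% in AhR-KO, beside 22.4% and 29.2%. Insig2 held the peak with the smallest p for a fall with LPS, the upstream peak printed above with its PU.1 letters (chr1:121334152-121334783). It had CPM of 15.1, 20 and 21.9 in WT, 17.2, 18.7 and 21.2 in AhR-KO, 4.55, 4.8 and 5.7 in WT with LPS and 5.23, 6.33 and 7.54 in AhR-KO with LPS. All LPS libraries lay below all unstimulated ones, with changes of -1.96 ± 0.0962 in WT (adjusted p = 2.73e-19) and -1.56 ± 0.0942 in AhR-KO (adjusted p = 5.62e-17). PU.1 letters were in 5 of the 27 member peaks lowered by LPS in both genotypes (18.5%), compared with 14.3% of such peaks of all genes.

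At an Insig2 exon, at chr1:121307058-121307555, both AhR loss and LPS lowered accessibility. Its medians were 6.03 in WT, 2.69 in AhR-KO, 1.33 in WT with LPS and 0.621 in AhR-KO with LPS, and the AhR-KO differences were -1.22 ± 0.159 and -1.12 ± 0.211 (adjusted p = 8.59e-08 and 4.05e-05). An Insig2 intron peak 1.6 kb from the start, at chr1:121329417-121329733, went the other way, with medians of 1.86, 2.58, 2.21 and 5.34 in the same order. It was higher in AhR-KO with LPS by 1.29 ± 0.118 (adjusted p = 6.53e-11), with an interaction of 0.79 ± 0.184 (adjusted p = 0.00285). This intron peak was called in 5 of 6 libraries of AhR-KO with LPS and in 0 of 6 of each other group. It entered the consensus through that group, which favours a higher value there. Insig1, the SREBP-induced partner of Insig2, had 1 other peak, 7.0 kb upstream, with CPM of 20.9, 27.5 and 28.8 in WT, 14.1, 15.6 and 18.2 in AhR-KO, 13.8, 14.5 and 18.3 in WT with LPS and 9.03, 10.8 and 12.4 in AhR-KO with LPS. AhR-KO lay below WT without overlap in both conditions, by -0.72 ± 0.0864 (adjusted p = 1.72e-08) and -0.50 ± 0.0879 (adjusted p = 1.41e-05). LPS lowered it by -0.78 ± 0.085 in WT, a DAR, and the change in AhR-KO was -0.56 ± 0.0893. The Insig1 TSS peak lay between -0.13 and 0.02 in all 5 comparisons.

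Scap, the escort of SREBP, had an intron peak 15.8 kb from the start, at chr9:110348870-110349371, with medians of 1.05 in WT and 2.9 in AhR-KO and of 4.9 and 5.89 with LPS. AhR-KO was higher without LPS by 1.46 ± 0.185 (adjusted p = 5.50e-08), and the interaction was -1.24 ± 0.23 (adjusted p = 2.91e-04). A second Scap intron peak, 8.6 kb from the start, was lowered by LPS in both genotypes, by -0.89 ± 0.1 and -1.38 ± 0.0975 (adjusted p = 1.04e-09 and 3.98e-15). Srebf1, whose SREBP drives fatty acid synthesis and which is itself an LXR target, had 5 other peaks. An intron peak 3.5 kb from the start, at chr11:60217012-60217258, had medians of 1.88 in WT, 0.878 in AhR-KO, 0.797 in WT with LPS and 0.703 in AhR-KO with LPS. AhR-KO was lower without LPS by -1.10 ± 0.184 (adjusted p = 7.82e-06), and the interaction was 0.94 ± 0.269 (adjusted p = 0.015). This intron peak was called in 4 of 6 unstimulated WT libraries and in 0 of 6 of each other group. It entered the consensus through unstimulated WT, which favours a higher value there. The Srebf1 peak at chr11:60209318-60211335, which covers the LXR-type repeat printed above and counts as an other peak because the annotation used for peaks has no protein-coding start there, moved by -0.20 to 0.15 in the 5 comparisons.

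Soat1 had distal peaks that moved in both directions. The intron peak printed above, at chr1:156462481-156462966, had CPM of 0.931, 1.67 and 2.77 in WT, 0.684, 0.815 and 1.1 in AhR-KO, 2.07, 3.97 and 4.79 in WT with LPS and 0.753, 0.969 and 1.26 in AhR-KO with LPS. With LPS every AhR-KO library was below WT, by -1.92 ± 0.188 (adjusted p = 3.23e-10). This intron peak was called in 5 libraries of WT with LPS and in 0 of each other group. Entry into the consensus through WT with LPS alone favours a higher value there. The interaction was -0.88 ± 0.296 (adjusted p = 0.0389), which became -0.80 with an adjusted p of 0.0554 without replicate 5 of unstimulated WT. An exon peak at chr1:156425560-156426504 was higher in AhR-KO, with medians of 2.08 and 5.32 without LPS and of 3.2 and 6.9 with it (fold changes of 2.43 and 2, adjusted p = 8.83e-09 and 8.72e-08). Its rise with LPS in WT, 0.59 ± 0.151, became 0.54 without that same library. LPS lowered a Soat1 exon peak at chr1:156439651-156439899 by -2.18 ± 0.16 in WT and -1.91 ± 0.169 in AhR-KO (adjusted p = 2.23e-14 and 1.82e-12), and an intron peak 6.9 kb from the start by -0.85 ± 0.0776 and -1.01 ± 0.077. The exon peak at chr1:156439651-156439899 was called in 5 libraries of unstimulated WT and in 0 of each other group. Entry into the consensus through unstimulated WT alone favours a fall with LPS in WT.

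Mylip, the ligase that degrades lipoprotein receptors, had a TSS peak within -0.14 and 0.09 in the 5 comparisons, with CPM from 20.2 to 27.8 over the 24 libraries. Of its 4 other peaks 3 were raised by LPS in both genotypes, beside 27.2% of all other peaks in WT and 29.2% in AhR-KO. Their log2 fold changes were up to 1.84 in WT and 2.46 in AhR-KO. With LPS 2 of the 4 were higher in AhR-KO, up to 0.68, beside 14.4% of all other peaks. Those starting at chr13:45396956 and chr13:45404153 were called in 0 of 6 libraries of each unstimulated group. They entered the consensus through LPS libraries, which favours a rise. Stard4 carries cholesterol between membranes, and its TSS peak had medians of 92 in WT, 78.7 in AhR-KO, 74.2 in WT with LPS and 75.6 in AhR-KO with LPS. AhR-KO was lower without LPS by -0.24 ± 0.0602 (adjusted p = 0.00131), with no overlap. The TSS peak of Idi1 was lower in AhR-KO by -0.21 ± 0.0635 without LPS and -0.20 ± 0.0625 with it, that of Mvd was at 0.26 ± 0.0666 and 0.10 ± 0.0649, that of Pmvk at 0.22 ± 0.0808 and -0.02 ± 0.0789 and that of Scap at 0.09 ± 0.0672 and -0.08 ± 0.0654. The remaining synthesis promoters, those of Mvk, Ebp, Fdft1, Lss, Msmo1 and the first Dhcr7 start, lay between -0.28 and 0.20 in every comparison.

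By the per-library peak lists, all 29 TSS peaks were called in 6 of 6 libraries of every group. Of the 167 other peaks, 50 were called in 6 of 6 libraries in WT, 63 in AhR-KO, 67 in WT with LPS and 62 in AhR-KO with LPS. Those called in 0 of 6 numbered 71, 61, 52 and 46. The same counts were not made over all consensus peaks, so whether they are particular to these genes is not known. Library depth was lowest in unstimulated WT, and its part in these counts was not tested.

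A further 28 genes of cholesterol handling, such as lysosomal release, membrane transport and the LXRs themselves, had 30 tested TSS peaks and 203 tested other peaks under the same rule. Their TSS peaks held 0 lower and 1 higher DARs in unstimulated AhR-KO, beside 4.23% and 1.98% of all TSS peaks. After LPS they held 1 lower and 0 higher, beside 5.51% and 1.46%. LPS lowered 0 and raised 0 of them in WT, beside 6.29% and 4.12%. In AhR-KO it lowered 4 (13.3%) and raised 0, beside 11.2% and 4.67%. Of their other peaks 20 were lower and 37 higher in AhR-KO without LPS (9.85% and 18.2%, beside 13.4% and 10.6% of all other peaks), and 31 were lower and 25 higher with LPS (15.3% and 12.3%, beside 13.7% and 14.4%). LPS lowered 53 and raised 52 in WT (26.1% and 25.6%, beside 22.9% and 27.2%), and lowered 63 and raised 50 in AhR-KO (31% and 24.6%, beside 22.4% and 29.2%). In the interaction 18 were lower and 3 higher (8.87% and 1.48%, beside 4.77% and 6.24%).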

How the data were processed

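ATAC-seq libraries were made by tagmentation with a Nextera transposase. The authors processed the reads with the nf-core atacseq pipeline on mm10; bcl2fastq 2.20.0, MACS2 and featureCounts are named in the submitters' processing notes. The deposited table holds raw counts of read pairs in consensus peaks merged over all libraries, counted, per the file header, for every peak that a pair overlapped by a fraction of at least 0.2. The authors also deposited broad peaks called per library, with a -log10 q-value for each. No replicates were pooled.

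The counts were fitted with edgeR 4.0.16 in R 4.3.3 on all 24 libraries by group, with TMM scaling, filterByExpr (minimum count 10), trended dispersion and the robust quasi-likelihood test. Members, lists and named peaks were chosen with earlier results of these data known. Text names each gene's TSS peak with the highest mean CPM, the 3 member peaks with the smallest p in each direction among the DARs of each comparison, and, for each role, the other peak with the smallest interaction p; the second Dhcr7 start, the nearer Apoe peak and the Srebf1 peak over the printed repeat were named after their values were seen. For Abca1, Abcg1, Insig1, Srebf1 and Ch25h all peaks were counted. Genes came from the GENCODE basic annotation, positions count from 1, and promoter windows are RefSeq's, read from GRCm38. Each replicate is 1 library, so p-values measure the spread between libraries. Scripts were tested on simulated counts. Alternatives were other scaling (RLE), DESeq2 1.42.0, no low-count filter, other fold thresholds, fits on the compared groups only, leaving out the shallowest library and a block for the replicate number. Some sequences are not reported here.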

Additional observations from a re-analysis of the deposited data

Results flagged for a closer look

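In 13 of 204 groups of 6 libraries, 1 library stood apart from the other 5 by Dixon's 95% criterion, and chance alone gives about 1 in 20. At the peak over the 3′ end of Abca1, replicate 5 was high in WT with LPS (8.52 CPM, others 6.86 to 7.41) and in AhR-KO with LPS (12.5, others 9.42 to 10.1). At Abcg1, replicate 2 of WT with LPS was high at the intron peak 9.6 kb from the start (11.7, others 8.99 to 9.83), and replicate 5 of unstimulated WT, the shallowest library, at the intron peak 14.5 kb from it (2.44, others 1.28 to 1.61). At the Cyp51 intron peak, replicate 4 of AhR-KO with LPS was high (0.911, others 0.582 to 0.677). At the TSS peaks, Fdft1 had a high replicate 1 in unstimulated WT (42.6, others 36.1 to 38.1), Fdps a high replicate 2 in WT with LPS (29.8, others 24.6 to 26.2), Insig2 a low replicate 4 in unstimulated WT (64.2, others 67.5 to 69.3) and Sqle a high replicate 2 in unstimulated AhR-KO (69.5, others 60.4 to 63.2). In WT with LPS, the Insig2 exon peak was high in replicate 1 (1.89, others 1.11 to 1.36) and the Insig2 intron peak in replicate 5 (2.55, others 2.16 to 2.27). The Soat1 intron peak 6.9 kb from the start was high in replicate 5 of AhR-KO with LPS (15.9, others 11.6 to 13), and the Sqle upstream peak in replicate 1 of unstimulated WT (5.75, others 4.06 to 4.61).

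The AhR-KO effect differed with and without LPS at 10 named peaks, by the interaction test with a fold of at least 1.5. The log2 interaction was above 0 at the Ch25h TSS (0.90), the Insig2 intron peak (0.79) and the Srebf1 intron peak (0.94). It was below 0 at the Cyp27a1 TSS (-0.60), the Cyp51 intron peak (-2.31), the Sqle upstream peak (-1.48), the Scap intron peak 15.8 kb from the start (-1.24), the Pmvk exon peak (-0.88), the Soat1 intron peak 4.1 kb from the start (-0.88) and the Abcg1 intron peak 9.6 kb from the start (-0.78). The Insig2, Srebf1 and Soat1 peaks each entered the consensus only through the group where they were highest, which favours such a difference. The Cyp51 intron peak entered only through WT libraries.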

How the results depend on the processing

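Of 214 counts under the alternatives 180 stayed within 1.5 times the reported value, and of 1630 values of named peaks 1585 kept their direction and their side of the threshold.

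The fold threshold decided most counts. With a 2-fold threshold AhR-KO against WT had 5 lower and 9 higher other peaks without LPS and 10 lower and 4 higher with it. LPS then lowered 0 TSS and 10 other peaks in WT, and 0 TSS and 22 other peaks in AhR-KO, and the interaction had 0 TSS peaks, 5 lower other peaks and 0 higher ones. With no fold threshold AhR-KO had 9 lower and 9 higher TSS peaks and 20 lower and 44 higher other peaks without LPS, and 7 lower and 1 higher TSS peaks and 36 higher other peaks with it. LPS then lowered 14 and raised 2 TSS peaks and lowered 50 other peaks in WT, lowered 13 and raised 3 TSS peaks in AhR-KO, and the interaction had 4 lower and 4 higher TSS peaks and 7 higher other peaks. LPS lowered 5 TSS peaks in AhR-KO under RLE scaling, DESeq2 and the fit on the compared groups only. Where 50% of a peak had to overlap, 15 other peaks were called in all 6 libraries of WT, 29 in AhR-KO, 29 in WT with LPS and 24 in AhR-KO with LPS.

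Values that changed sign were all near 0 and none was a DAR. Under RLE and DESeq2 these were the interactions at the TSS peaks of Cyp51, Nsdhl, Hmgcs1, Idi1, Insig1 and Sc5d (-0.04 for the first, -0.00 for the second, -0.03 for the others), LPS in AhR-KO at Fdft1 and Msmo1 (-0.02), and AhR-KO without LPS at the Insig2 upstream peak (0.03), Lss (0.05) and Soat1 (0.02). In the fit on the compared groups only they were Fdft1 and Msmo1 (-0.01), Fdps with LPS (-0.02) and the Pmvk exon peak with LPS (-0.00), and with no filter or with the block Fdps with LPS (-0.00).

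With the replicate number as a block AhR-KO with LPS had 18 lower and 15 higher other peaks, and the interaction had 13 lower. With the block within genotype LPS lowered 34 and raised 55 other peaks in WT and lowered 44 and raised 52 in AhR-KO, and the TSS counts were the same as reported. Same-number libraries correlated at 0.037 to 0.29 between the WT groups, with 5 of 6 above 0.1 and 4 of 6 best with their own number, and at 0.00375 to 0.171 between the AhR-KO groups, with 2 of 6 above 0.1 and 3 of 6 best with their own. Replicate 6 of WT had the lowest share of counts on chromosome Y both unstimulated (0.0118%) and with LPS (0.00901%), against 0.0189% or more in every other library. Not every pair passed 0.1 and no label states a shared animal, so the numbers were not taken as pairs.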
